A study of Homo sapiens with 16 samples.

Results

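The genes described here are those of cholesterol and fatty acid synthesis, a set of 31 taken by symbol: 8 enzymes from acetyl-CoA to squalene, 10 from squalene to cholesterol, 6 regulators and sterol transfer proteins, and 7 enzymes of fatty acid synthesis and desaturation. All 31 were found among the 58676 gene identifiers of the count files, and all 31 passed the filter on low counts in both cell lines. RNA-seq libraries came from the human cancer lines A549 (lung) and SUM159 (triple-negative breast), with 2 libraries in each of 8 groups. In each line, cells were untreated (UT), exposed to 2 µM palbociclib (PD), an inhibitor of the kinases CDK4 and CDK6, exposed to 3 µM indisulam (IN), which brings the splicing factor RBM39 to a ubiquitin ligase for degradation, or exposed to both (P+I), and exposures lasted 16 h. The duplicates are technical by the study's own account, so p-values measure the spread between these libraries and not between cultures. A549 cells were kept in RPMI and SUM159 cells in DMEM/F12 with insulin and hydrocortisone, so the line and its medium cannot be told apart in any comparison between lines.

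Cholesterol is built from acetyl-CoA through mevalonate and squalene, and fatty acids are built from acetyl-CoA and malonyl-CoA. Transcription of both sets of enzymes is driven by the sterol regulatory element-binding proteins, SREBP1 and SREBP2, which are encoded by SREBF1 and SREBF2. SCAP escorts the SREBPs from the endoplasmic reticulum to the Golgi, where proteases release their active part, and INSIG1 and INSIG2 hold SCAP back when sterols are plentiful. SREBP2 acts mainly on sterol genes and SREBP1 mainly on fatty acid genes, and INSIG1 is itself an SREBP target. Insulin is a known inducer of SREBF1.

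The sequences shown first are stretches of promoter from 3 members that the results turn on: SREBF2, whose level fell with indisulam in both lines, and INSIG1 and HMGCS1, whose responses differed between the lines. They are from RefSeq (GRCh38.p14) and stop before the first exon annotated on their strand. SREBF2 is at chr22:41832855-41833104, plus strand, INSIG1 at chr7:155297628-155297775, plus strand, and HMGCS1 at chr5:43313513-43313662, minus strand, each written 5′ to 3′ on its own strand, with capitals marking every match to the motifs named after them.
SREBF2: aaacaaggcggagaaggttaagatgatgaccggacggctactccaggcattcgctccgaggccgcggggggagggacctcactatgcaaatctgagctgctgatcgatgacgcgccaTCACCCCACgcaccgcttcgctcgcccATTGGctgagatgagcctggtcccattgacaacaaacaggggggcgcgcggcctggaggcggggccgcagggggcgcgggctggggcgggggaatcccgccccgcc
INSIG1: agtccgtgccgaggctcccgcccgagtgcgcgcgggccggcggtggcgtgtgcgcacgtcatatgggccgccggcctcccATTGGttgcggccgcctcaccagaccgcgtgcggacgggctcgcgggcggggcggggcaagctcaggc
HMGCS1: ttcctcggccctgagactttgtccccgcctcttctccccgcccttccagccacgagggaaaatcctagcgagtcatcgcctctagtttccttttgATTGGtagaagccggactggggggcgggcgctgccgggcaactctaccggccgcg

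Promoter windows of 300 bases, 250 before and 50 after the start, were given for 27 of the 31 members, which had 37 windows in all. Each was searched on both strands for TCACNCCAC, a form of the sterol regulatory element, for CCAAT, the NF-Y motif, and for the E-box CACGTG. The 3 motifs may share end letters, since TCACNCCAC ends in the CAC that opens CACGTG. TCACNCCAC was in 1 of the 37 windows, that of SREBF2 (2.7%), and in 1.13% of all 35116 windows. CCAAT was in 24 windows of members (64.9%), against 34.6% of all windows, and CACGTG was in 5 (13.5%), against 7.26%. A match is a string of letters and not a measured binding site.

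Gene counts per library lay between 18306636 and 34075588, which put 3 counts at between 0.088 and 0.164 CPM (a library's gene counts scaled to a fixed total). Markers of the 2 lines set them apart in the direction of their labels: KRT8 was between 4980 and 7188 CPM in A549 and between 504 and 788 CPM in SUM159, and VIM was between 713 and 961 CPM in A549 and between 2729 and 3899 CPM in SUM159. Of genes of other cell types, PTPRC had 76 to 154 counts and PECAM1 363 to 1186 counts in SUM159 libraries, and ALB had at most 6 counts in any library. The share of counts in no annotated feature was between 4.02% and 4.57% in untreated A549, 4.17% and 4.71% with palbociclib, 5.70% and 5.97% under indisulam, and 4.83% and 5.66% with both. In SUM159 it was between 3.89% and 3.99% untreated, 4.96% and 5.45% with palbociclib, 5.70% and 6.08% under indisulam, and 5.94% and 6.78% with both, so that every treated SUM159 library was above the untreated ones. Its part in the changes described here was not tested. In bulk RNA, fewer cells with a transcript and less transcript per cell cannot be told apart.

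Between untreated cells of the 2 lines, 16 members were higher and 7 lower in SUM159 than in A549. Calls were made by edgeR's quasi-likelihood test at an adjusted p-value under 0.05. Over all 17764 genes tested, 38.3% were higher and 38.0% lower, so most genes outside the set differed as well. The largest gap was in FADS2, which with FADS1 desaturates polyunsaturated fatty acids. FADS2 was at 466 and 443 CPM in untreated A549 libraries and at 11.7 and 11.7 CPM in untreated SUM159 libraries, a log2 difference of -5.28 (SE 0.0576, adjusted p = 1.13e-28). FADS1 was at 451 and 444 CPM in A549 and at 114 and 116 CPM in SUM159 (log2 difference -1.96, SE 0.0398). Both genes thus stood far lower in SUM159, with no overlap between the lines. TM7SF2, a sterol reductase, was low in SUM159, at 0.862 and 1.09 CPM against 8.87 and 8.63 CPM in A549. In the opposite direction stood LSS, the lanosterol synthase that closes the sterol rings, at 35.8 and 32.8 CPM in A549 and 112 and 117 CPM in SUM159 (log2 difference 1.74, SE 0.0572).

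Per kilobase of exon, the untreated levels spanned a wide range in each line. SCD, the desaturase that makes monounsaturated fatty acids, was the highest member in A549, at 193 ± 0.73 CPM per kb (SD, n = 2), followed by ACLY, which makes cytosolic acetyl-CoA from citrate, at 151 ± 0.54. In SUM159 the order of this pair was the other way round, with ACLY at 174 ± 3.11 and SCD at 159 ± 0.323 CPM per kb. FADS1 (43.7 ± 0.475), FADS2 (43.1 ± 1.52) and EBP (41.5 ± 0.622 CPM per kb), the next 3 in A549, lay close to each other. FASN, the fatty acid synthase, came next in SUM159, at 80.9 ± 4.88 CPM per kb, and stood at 37.6 ± 0.985 in A549. SREBF2, the regulator of sterol genes, was at 15 ± 0.519 CPM per kb in A549 and 14.9 ± 0.272 in SUM159, a difference that did not pass the test (log2 difference -0.00896, SE 0.0473, adjusted p = 0.871). SREBF1 was higher in A549, at 29.4 ± 1.21 against 19.3 ± 0.272 CPM per kb. INSIG1 was higher in SUM159, at 23.3 ± 1.36 against 8.95 ± 0.157 CPM per kb. The lowest members were CYP51A1, the lanosterol demethylase, in A549 (0.78 ± 0.0743 CPM per kb) and TM7SF2 in SUM159 (0.286 ± 0.0469 CPM per kb).

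**Figure D1:**
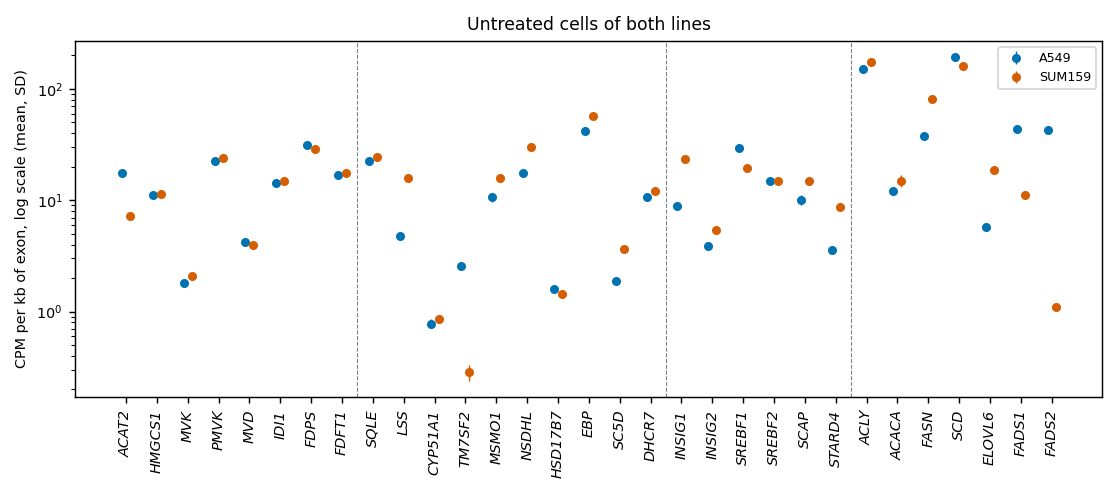
Levels of the 31 members in untreated cells, in CPM per kb of exon on a log axis, with the mean and SD of 2 libraries per line. Dashed lines part the 4 role groups. FADS2 and TM7SF2 show the widest gaps between A549 and SUM159, and SREBF2 and HMGCS1 sit at the same height in both.

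Levels of single members could rest on reads of neighbours or lack reads of their own. Reads marked as ambiguous, between 4.38% and 5.63% of a library's counts, were assigned to no gene. The exons of 5 members, CYP51A1, TM7SF2, EBP, FADS1 and FADS2, overlap another annotated gene on the same strand, FADS2 that of FEN1, a DNA replication enzyme. Those of 15 members overlap a gene on the other strand, SREBF2 among them, whose partner is SREBF2-AS1. The exons of FADS1 and FADS2 overlap each other on opposite strands, so the counts of the pair may not be independent. The strand setting used in counting was not given in the sources used here, so the counts of these members are uncertain to that extent. Members that overlap a neighbour on the same strand are uncertain under either setting. Among them are CYP51A1, the lowest member in A549, and TM7SF2, the lowest in SUM159.

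Palbociclib moved single enzymes in both directions. TM7SF2, MSMO1, INSIG2 and STARD4 were higher and ACAT2, FDPS, EBP, INSIG1, FASN, FADS1 and FADS2 were lower in both lines, while SREBF1 and SREBF2 passed the test in neither. The STARD4 calls were lost in DESeq2 in both lines and without untreated replicates 1 or 2 or palbociclib replicate 2 in A549, and without untreated replicate 2 or palbociclib replicate 1 in SUM159. The A549 call of STARD4 was also lost with DESeq2's size factors, no filter, a replicate block and a fit of only the groups compared. In A549, 7 members were called higher (22.6%, against 22.0% of all 15744 genes) and 8 lower (25.8%, against 21.1%), shares close to those of all genes. In SUM159, 5 members were higher (16.1%, against 25.5% of 16080 genes) and 16 lower (51.6%, against 29.0%). The median log2 change of the 31 was -0.0185 in A549, where that of all genes was 0.028, and -0.14 in SUM159, where that of all genes was 0.0186. These splits moved with the scaling of libraries: on total counts, which raised the median of all genes by 0.0597 in A549 and 0.105 in SUM159, they were 9 higher and 6 lower in A549 and 10 higher and 7 lower in SUM159. On that scaling 4302 of 15744 genes were higher and 2596 lower in A549, and 5546 of 16080 higher and 3339 lower in SUM159. Of the called members 60.0% were thus higher in A549 and 58.8% in SUM159, against 62.4% of all called genes in each line. Without 1 untreated A549 library (replicate 2) 9 members were called in A549, and without 1 untreated SUM159 library (replicate 1) 13 were called in SUM159.

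ACAT2, the cytosolic thiolase that joins acetyl-CoA units at the head of the mevalonate pathway, fell most in A549. It was at 46.2 and 43.5 CPM in untreated A549, 21.7 and 22.8 with palbociclib, 30.4 and 30.4 under indisulam and 17.2 and 18.7 with both. None of the 4 groups overlapped, and every treated library was below both untreated ones. The log2 change with palbociclib was -1.01 (SE 0.0664, adjusted p = 1.67e-08). In SUM159 the gene was at 20 and 20.1 CPM untreated, 15.1 and 13.4 with palbociclib, 12.7 and 13.9 under indisulam and 10.2 and 10.3 with both. There the single-agent groups overlapped each other but not the untreated or the combination libraries, and the change with palbociclib was -0.50 (SE 0.0807, adjusted p = 5.5e-05). The exons of ACAT2 (chr6:159762045-159779112) overlap those of TCP1 and SOD2 on the other strand.

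EBP, the sterol isomerase that acts late in the pathway, was low wherever palbociclib was present. Its levels in A549 were 70.3 and 71.7 CPM untreated, 45.9 and 46.4 with palbociclib, 73.2 and 72 under indisulam and 45.1 and 47.9 with both. In SUM159 they were 108 and 105 untreated, 77.9 and 79.3 with palbociclib, 103 and 105 under indisulam and 73.2 and 73.0 with both. Libraries with palbociclib were thus low and those without it high in either line. The log2 change with palbociclib was -0.62 in A549 (SE 0.0514, adjusted p = 2.23e-07) and -0.44 in SUM159 (SE 0.0405, adjusted p = 7.81e-08). With indisulam alone it was 0.0331 in A549 and -0.0404 in SUM159 (0.0136 on total counts), neither past the test.

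FADS1, the desaturase of the last step to arachidonic acid, fell alongside. In A549 it was at 436 and 429 CPM untreated, 297 and 305 with palbociclib, 395 and 394 under indisulam and 253 and 240 with both. SUM159 libraries held 121 and 123 CPM untreated, 82.7 and 85.2 with palbociclib, 107 and 105 under indisulam and 78.8 and 77.2 with both. The order untreated, indisulam, palbociclib, combination was the same in both lines, with no overlap between groups. With palbociclib the log2 change was -0.52 in A549 (SE 0.0392, adjusted p = 7.55e-08) and -0.54 in SUM159 (SE 0.0399, adjusted p = 5.82e-09). FADS2, its partner desaturase, was at 451 and 428 CPM in untreated A549 and 355 and 379 with palbociclib (log2 change -0.26, SE 0.0426), and at 12.4 and 12.3 CPM in untreated SUM159 and 10.7 and 10.1 with palbociclib (log2 change -0.26, SE 0.0879). The SUM159 call of FADS2 was lost on total counts, in DESeq2 and without either untreated library or the second palbociclib library.

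TM7SF2 rose most with palbociclib in both lines. It was at 8.58 and 8.34 CPM in untreated A549, 14.7 and 16.0 with palbociclib, 5.48 and 5.2 under indisulam and 7.59 and 6.98 with both. Palbociclib libraries were the highest and indisulam libraries the lowest, and the combination lay just under the untreated level. The log2 change with palbociclib was 0.87 (SE 0.0979, adjusted p = 5.91e-06). SUM159 libraries had 0.916 and 1.15 CPM untreated, 1.35 and 1.83 with palbociclib, 0.882 and 0.851 under indisulam and 1.72 and 1.52 with both. The SUM159 change with palbociclib, 0.64 (SE 0.254, adjusted p = 0.0422), was lost in DESeq2, without either untreated library and without the second palbociclib library.

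MSMO1, a demethylase of methylsterols, was at 31.3 and 27.6 CPM in untreated A549, 40.8 and 39.6 with palbociclib, 32.7 and 34.6 under indisulam and 32.1 and 31.6 with both. In SUM159 it was at 50.2 and 45.1 untreated, 65.1 and 56.5 with palbociclib, 41.0 and 41.3 under indisulam and 42.2 and 44.3 with both. The palbociclib libraries were the highest in either line. The log2 change was 0.45 in A549 (SE 0.0683, adjusted p = 0.000109) and 0.35 in SUM159 (SE 0.0666, adjusted p = 0.000272). INSIG2, the SCAP anchor that is not an SREBP target, rose by 0.36 in A549 (SE 0.0873, adjusted p = 0.0039), from 15.9 and 14 to 19.4 and 19.1 CPM, a call that was lost without the second untreated library. In SUM159 it rose by 0.27 (SE 0.0692, adjusted p = 0.00348), from 22.2 and 23.5 to 28.7 and 26.5 CPM.

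FASN fell by 0.56 on the log2 scale in SUM159 with palbociclib (SE 0.0578, adjusted p = 3.35e-07), from 767 and 830 to 495 and 588 CPM. In A549 it went from 345 and 332 to 271 and 293 CPM, a log2 change of -0.26 (SE 0.0929, adjusted p = 0.0332) that was lost when any 1 of the 4 libraries was left out. INSIG1 fell in both lines, by 0.23 in A549 (SE 0.0689, adjusted p = 0.0132) and by 0.26 in SUM159 (SE 0.0591, adjusted p = 0.00141), and its A549 call was lost without untreated replicate 2 or palbociclib replicate 1. SCD moved in opposite directions, up by 0.16 in A549 (SE 0.0355, adjusted p = 0.0025), and down by 0.15 in SUM159 (log2 change -0.15, SE 0.0344, adjusted p = 0.0012), where total-count scaling ended the call. SQLE, the squalene epoxidase, changed by -0.0571 in A549 (SE 0.0489, adjusted p = 0.374; 0.00267 on total counts) and by -0.16 in SUM159 (SE 0.044, adjusted p = 0.00577), where the call was lost on total counts and without palbociclib replicate 2. Among the regulators, SREBF1 changed by -0.16 in A549 (SE 0.0809, adjusted p = 0.12) and -0.0723 in SUM159 (SE 0.0442, adjusted p = 0.179), which was 0.0326 on total counts. SREBF2 changed by 0.11 (SE 0.0481, adjusted p = 0.0866) and -0.0293 (SE 0.0417, adjusted p = 0.573), the latter 0.0757 on total counts. SCAP changed by 0.0305 in A549 (SE 0.0663, adjusted p = 0.744) and -0.14 in SUM159 (SE 0.0422, adjusted p = 0.0111), a call lost on total counts, with no filter and without untreated replicate 1.

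Changes of at least 1.5-fold among the called members were few with palbociclib. In A549 1 was higher, TM7SF2, and 2 were lower, ACAT2 and EBP, where 7.43% and 5.7% of all genes passed that rule. In SUM159 TM7SF2 was the 1 higher member and none was lower, against 12.1% and 6.39% of all genes.

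**Figure D2:**
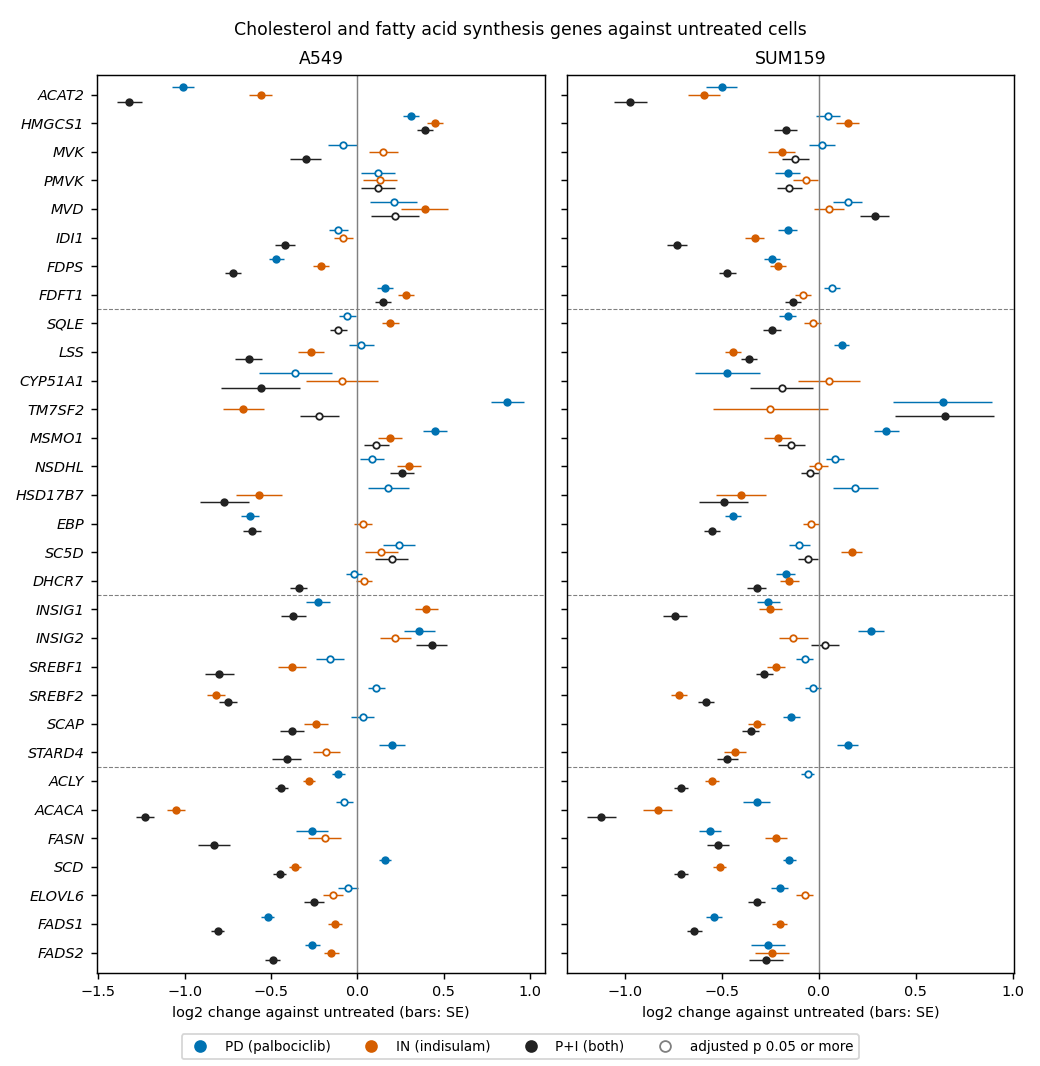
Log2 change of each member against untreated cells of its line, with SE, for palbociclib, indisulam and the combination. Filled points passed an adjusted p-value of 0.05. All 7 fatty acid synthesis genes lie left of 0 with the combination in both lines, and ACACA and SREBF2 lie far left in every indisulam group.

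Indisulam lowered SREBF1, SREBF2 and SCAP and most fatty acid enzymes in both lines, and its effect on several sterol enzymes differed between them. ACACA, SREBF2, ACAT2, HSD17B7, SREBF1, SCAP, SCD, ACLY, LSS, FDPS, FADS1 and FADS2 were lower in both, 12 members in all, and HMGCS1 alone was higher in both. The share of all genes called alike in both lines was not computed. Of the 12, LSS and FADS2 lost their A549 calls without untreated or indisulam replicate 1, and HSD17B7 without indisulam replicate 1. FADS1 and SCAP lost theirs without untreated replicate 1 or either indisulam library. In SUM159, FADS2 lost its call on total counts, with no filter, in DESeq2 and when any 1 of the 4 libraries was left out. HSD17B7 lost its SUM159 call in DESeq2 and without untreated replicate 2 or indisulam replicate 1. In A549, 7 members were higher (22.6%, against 23.3% of all genes) and 13 lower (41.9%, against 25.9%), and the median change of the 31 was -0.13. In SUM159, 2 were higher (6.45%, against 21.9%) and 19 lower (61.3%, against 24.9%), with a median of -0.21. The median of all genes was 0.00891 in A549 and 0.00877 in SUM159. Without the first indisulam library of A549, 13 members were called there.

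ACACA, acetyl-CoA carboxylase, which makes malonyl-CoA in the committed step of fatty acid synthesis, fell most in both lines. In A549 it was at 146 and 160 CPM untreated, 145 and 145 with palbociclib, 71.9 and 76.0 under indisulam and 65.4 and 65.2 with both. In SUM159 it was at 187 and 223 untreated, 152 and 176 with palbociclib, 120 and 111 under indisulam and 98.3 and 90.7 with both. Every library with indisulam was below every library without it. The log2 change with indisulam was -1.05 in A549 (SE 0.0522, adjusted p = 1.45e-09) and -0.83 in SUM159 (SE 0.0734, adjusted p = 1.11e-07). The gene spans chr17:37084992-37406836 and no annotated exon of another gene overlaps its exons.

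SREBF2 (chr22:41833105-41907306), whose promoter is printed above, was next in both lines. It was at 120 and 114 CPM in untreated A549, 121 and 130 with palbociclib, 65.5 and 67.1 under indisulam and 69.3 and 69.4 with both. SUM159 libraries had 126 and 129 CPM untreated, 124 and 126 with palbociclib, 75 and 79.5 under indisulam and 87.4 and 83.5 with both. Again the libraries with indisulam and those without it did not overlap in either line. The log2 change with indisulam was -0.82 in A549 (SE 0.0506, adjusted p = 1.15e-08) and -0.72 in SUM159 (SE 0.0436, adjusted p = 1.43e-09).

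The other regulators moved less. SREBF1 was at 241 and 227 CPM in untreated A549, 207 and 211 with palbociclib, 180 and 181 under indisulam and 152 and 116 with both. In SUM159 it was at 167 and 170 untreated, 154 and 167 with palbociclib, 141 and 149 under indisulam and 141 and 137 with both. Indisulam libraries were below the untreated ones in either line, and the 2 A549 combination libraries stood apart from each other. The log2 change with indisulam was -0.38 in A549 (SE 0.0817, adjusted p = 0.00154) and -0.22 in SUM159 (SE 0.0447, adjusted p = 0.000799). SCAP was at 66.4 and 56.7 CPM in untreated A549 and 52.0 and 52.4 with indisulam, a log2 change of -0.24 (SE 0.0681, adjusted p = 0.00954) that was lost without untreated replicate 1 or either indisulam library. In SUM159 it fell by 0.32 (SE 0.043, adjusted p = 1.18e-05), from 100 and 96.7 to 77.6 and 79.9 CPM. STARD4, which moves sterol between membranes, fell by 0.43 in SUM159 and changed by -0.18 in A549, which did not pass the test.

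INSIG1 (chr7:155297776-155310235) went in opposite directions. It was at 31.2 and 32.0 CPM in untreated A549, 26.3 and 27.2 with palbociclib, 42.6 and 40.6 under indisulam and 23.0 and 25.7 with both. No groups overlapped, with indisulam libraries the highest and combination libraries the lowest. SUM159 libraries had 93.9 and 85.9 CPM untreated, 75.6 and 74.9 with palbociclib, 79.0 and 72.8 under indisulam and 50.6 and 57.4 with both. There every treated library was below the untreated ones. With indisulam the log2 change was 0.40 in A549 (SE 0.0668, adjusted p = 0.000197) and -0.25 in SUM159 (SE 0.0596, adjusted p = 0.00283), the latter lost without untreated replicate 1 or indisulam replicate 2. INSIG2 changed by 0.22 in A549 (SE 0.09, adjusted p = 0.0552) and -0.13 in SUM159 (SE 0.0732, adjusted p = 0.173).

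HMGCS1 (chr5:43287470-43313512), the HMG-CoA synthase and a standard SREBP2 target, was at 72.9 and 70.9 CPM in untreated A549, 89.5 and 88.5 with palbociclib, 99.5 and 96.3 under indisulam and 94.7 and 94.4 with both. All treated A549 libraries were above the untreated ones. SUM159 libraries had 77.7 and 80.4 CPM untreated, 88.4 and 75.7 with palbociclib, 90 and 85.9 under indisulam and 68.6 and 71.7 with both. Here the palbociclib pair straddled the untreated level and the combination lay below it. With indisulam the log2 change was 0.45 in A549 (SE 0.0459, adjusted p = 2.12e-06) and 0.15 in SUM159 (SE 0.0605, adjusted p = 0.0484), and the SUM159 call was lost in DESeq2 and when any 1 of the 4 libraries was left out.

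Other steps of the A549 sterol pathway rose with indisulam as well. MVD, which decarboxylates mevalonate diphosphate, went from 19.9 and 18.6 to 24.3 and 26.2 CPM (log2 change 0.39, SE 0.136, adjusted p = 0.0278), a call that was lost when any 1 of the 4 libraries was left out. NSDHL, a sterol dehydrogenase, went from 33.9 and 34.2 to 41.9 and 41.9 CPM (log2 change 0.30, SE 0.0679). FDFT1, squalene synthase, the first enzyme of the sterol branch, went from 81.5 and 83.1 to 99.9 and 100 CPM (log2 change 0.28, SE 0.047). SQLE was at 96.6 and 92.3 CPM untreated, 94.2 and 87.8 with palbociclib, 109 and 107 under indisulam and 86.9 and 87.6 with both, and its change with indisulam was 0.19 (SE 0.0487, adjusted p = 0.00423). In SUM159 SQLE was at 112 and 111 CPM untreated, 104 and 96.4 with palbociclib, 109 and 110 under indisulam and 92.9 and 96.7 with both, and the indisulam change of -0.0292 (SE 0.0441, adjusted p = 0.62), which was 0.0248 on total counts, did not pass the test. MSMO1 rose in A549, by 0.19 with SE 0.0704 (adjusted p = 0.0372), and fell in SUM159, by 0.21 with SE 0.0703 (adjusted p = 0.0215), but its A549 call was lost in DESeq2, with no filter and without untreated replicate 2 or either indisulam library, and its SUM159 call on total counts and without untreated replicate 1 or either indisulam library. SC5D, a late desaturase, rose in SUM159 by 0.17 (SE 0.0534, adjusted p = 0.0174), from 39.4 and 38.0 to 43.8 and 43.0 CPM, lost in DESeq2 and without untreated replicate 2 or indisulam replicate 1.

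Other members fell with indisulam. TM7SF2 fell by 0.66 in A549 (SE 0.118, adjusted p = 0.000333) and changed by -0.25 in SUM159 (SE 0.297, adjusted p = 0.515), where it was near 1 CPM. ACAT2 fell by 0.56 in A549 (SE 0.0651, adjusted p = 6.54e-06) and by 0.59 in SUM159 (SE 0.0831, adjusted p = 2.04e-05). HSD17B7, a ketosteroid reductase of low level, fell by 0.57 in A549 and by 0.40 in SUM159. SCD was at 983 and 976 CPM in untreated A549, 1101 and 1083 with palbociclib, 759 and 763 under indisulam and 718 and 715 with both. In SUM159 it was at 889 and 881 untreated, 806 and 786 with palbociclib, 631 and 615 under indisulam and 542 ± 10.6 (mean and SD) with both. Indisulam groups were the 2 lowest in each line, with the combination under indisulam alone. The indisulam change of SCD was -0.36 in A549 (SE 0.0356, adjusted p = 1.25e-06) and -0.51 in SUM159 (SE 0.0346, adjusted p = 5.46e-09).

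ACLY was at 761 and 756 CPM in untreated A549, 692 and 717 with palbociclib, 624 and 625 under indisulam and 555 and 566 with both. In SUM159 it was at 949 and 967 untreated, 930 and 914 with palbociclib, 653 and 652 under indisulam and 576 and 594 with both. The groups kept this falling order without overlap in both lines. With indisulam the change was -0.28 in A549 (SE 0.037) and -0.55 in SUM159 (SE 0.0341). FASN was at 345 and 332 CPM in untreated A549 and 296 and 298 with indisulam (log2 change -0.19, SE 0.0931, adjusted p = 0.106). In SUM159 it fell from 767 and 830 to 685 and 682 CPM (log2 change -0.22, SE 0.0576, adjusted p = 0.00409), a call lost without untreated replicate 2.

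No member was at least 1.5-fold higher with indisulam in either line, against 7.34% of all genes in A549 and 8.22% in SUM159. In A549 ACACA, SREBF2 and TM7SF2 were at least 1.5-fold lower, 3 members, against 11.1% of all genes. In SUM159 they were ACACA, SREBF2 and ACAT2, also 3, against 5.34%.

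**Figure D3:**
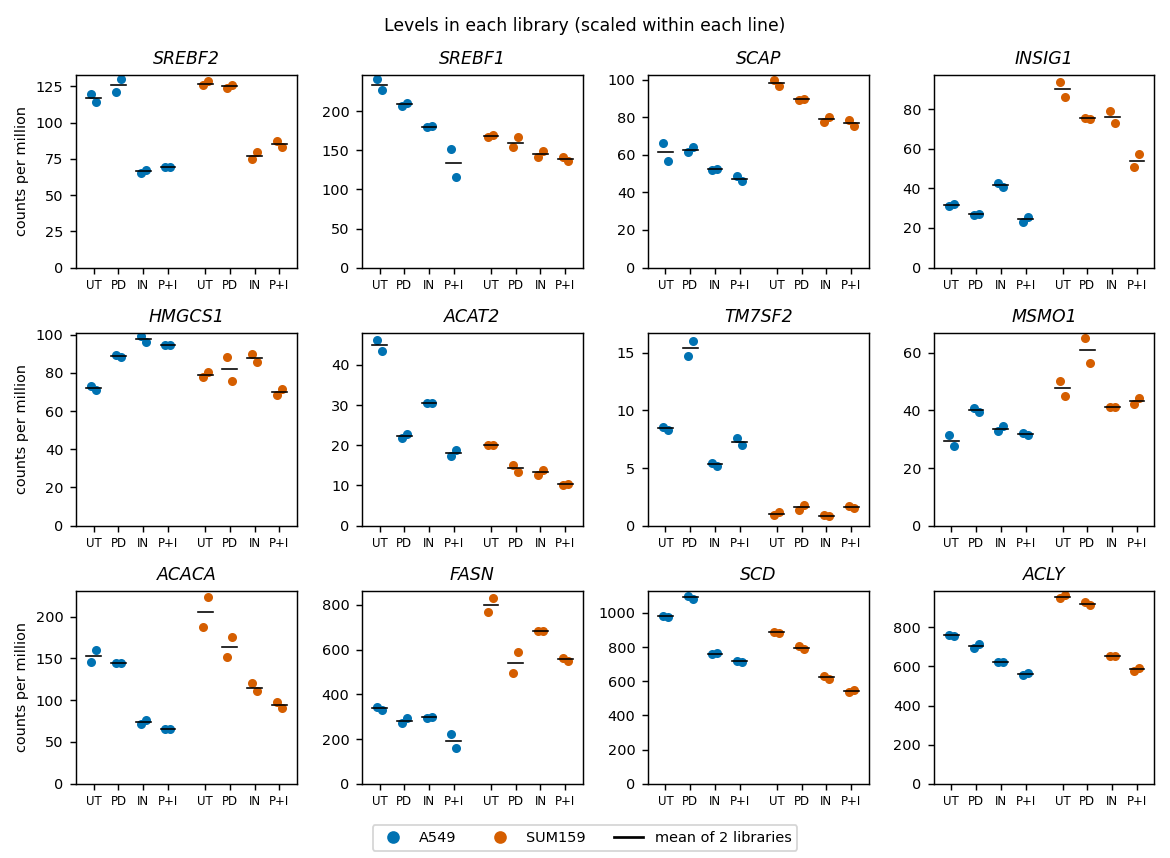
Levels of 12 members in each of the 16 libraries, in CPM scaled within each line, with a bar at the mean of 2 libraries. SREBF2 and ACACA drop in all IN and P+I libraries, INSIG1 rises with IN in A549 and not in SUM159, and the pair of A549 P+I libraries lies apart for SREBF1 (152 and 116) and FASN (221 and 161).

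The combination lowered most of the set in both lines. In A549, 4 members were higher (12.9%, against 27.4% of all genes) and 21 lower (67.7%, against 30.4%), with a median change of -0.41. In SUM159, 2 were higher (6.45%, against 32.2%) and 22 lower (71.0%, against 33.1%), with a median of -0.32. Of the lower members 19 were shared, 19 of 21 in A549 and 19 of 22 in SUM159, and no higher member was shared. The share of all genes called alike in both lines was not computed. All 7 fatty acid synthesis genes were lower in both lines, with a group median of -0.49 in A549 and -0.64 in SUM159. The median of all genes was 0.00137 in A549 and 0.0149 in SUM159, and total-count scaling raised it by 0.148 in SUM159, where 3 members were then higher and 18 lower. On that scaling 14.3% of the called members were higher, against 64.3% of all called genes.

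ACAT2 and ACACA were the lowest relative to untreated cells. ACAT2 changed by -1.32 in A549 (SE 0.0704, adjusted p = 7.46e-10) and by -0.97 in SUM159 (SE 0.0855, adjusted p = 2.9e-08). ACACA changed by -1.23 in A549 (SE 0.0531, adjusted p = 6.35e-11) and by -1.12 in SUM159 (SE 0.0741, adjusted p = 7.11e-10). Thus the first enzyme of the mevalonate pathway and the committed enzyme of fatty acid synthesis were at 40.1% to 51.2% of their untreated level. FASN changed by -0.83 in A549 (SE 0.0951, adjusted p = 3.38e-06), where its combination libraries were far apart at 221 and 161 CPM, and by -0.52 in SUM159 (SE 0.0578, adjusted p = 4.89e-07), where they were at 562 and 551 CPM. SCD fell by 0.45 in A549 (SE 0.0357, adjusted p = 6.48e-08) and by 0.71 in SUM159 (SE 0.0347, adjusted p = 1.24e-11).

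The regulators fell together in A549, apart from INSIG2. SREBF1 changed by -0.80 there (SE 0.0834, adjusted p = 1.17e-06) and by -0.28 in SUM159 (SE 0.0446, adjusted p = 3.11e-05). SREBF2 changed by -0.75 in A549 (SE 0.0507, adjusted p = 1.05e-08) and by -0.58 in SUM159 (SE 0.0429, adjusted p = 3.24e-09). SCAP changed by -0.38 (SE 0.0693, adjusted p = 0.000278) and -0.35 (SE 0.0428, adjusted p = 1.56e-06). INSIG1, which had risen with indisulam alone in A549, fell there by 0.37 (SE 0.0715, adjusted p = 0.000431) and in SUM159 by 0.74 (SE 0.0612, adjusted p = 1.23e-08). INSIG2 rose by 0.43 in A549 (SE 0.089, adjusted p = 0.000829) to 19.2 and 21.1 CPM, and changed by 0.0334 in SUM159 (SE 0.0711, adjusted p = 0.695), where it was at 23.1 and 23.7 CPM. STARD4 fell by 0.41 in A549 and by 0.47 in SUM159.

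Among sterol enzymes, HMGCS1 rose by 0.39 in A549 (SE 0.0462, adjusted p = 4.09e-06) and fell by 0.17 in SUM159 (SE 0.0612, adjusted p = 0.0196), the latter lost on total counts and without untreated replicate 2 or combination replicate 1. NSDHL rose by 0.26 in A549 (SE 0.0685, adjusted p = 0.0046). SQLE changed by -0.11 in A549 (SE 0.0496, adjusted p = 0.0607) and by -0.24 in SUM159 (SE 0.0443, adjusted p = 0.00016), where total-count scaling ended the call. The 2 higher members of SUM159 were TM7SF2, at 0.65 (SE 0.255, adjusted p = 0.0335), and MVD, at 0.29 (SE 0.0751, adjusted p = 0.00273), which went from 20.4 and 19.4 to 23.1 and 25.7 CPM. The TM7SF2 call was lost in DESeq2 and without either untreated library or the first combination library. FDFT1 rose in A549 by 0.15 and fell in SUM159 by 0.13 (0.0186 higher on total counts), calls that were lost without combination replicate 1 in either line and, in A549, in DESeq2 and without untreated replicate 1.

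With the 1.5-fold rule, no member was higher and 10 were lower in A549 with the combination (ACAT2, FDPS, LSS, HSD17B7, EBP, SREBF1, SREBF2, ACACA, FASN and FADS1), against 11.6% and 14.7% of all genes. In SUM159 TM7SF2 was the 1 higher member and 7 were lower (ACAT2, IDI1, INSIG1, ACLY, ACACA, SCD and FADS1), against 18.5% and 10.8%.

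The remaining members are given by their range over the 8 libraries of each line. IDI1, the isomerase that makes the activated allylic unit, lay between 43.6 and 61.0 CPM in A549 and between 40.0 and 68.2 CPM in SUM159, lowest with the combination in both. FDPS, the farnesyl diphosphate synthase, lay between 66.8 and 113 CPM and between 80.6 and 116 CPM, and was lower in every comparison with untreated cells. MVK, mevalonate kinase, ranged from 12.9 to 17.7 CPM in A549 and from 17.1 to 20.6 CPM in SUM159. PMVK, the next kinase, ranged from 20.8 to 25.7 CPM and from 22.3 to 26.1 CPM, and its 1 call, lower with palbociclib in SUM159 (adjusted p = 0.0496), was lost under every other setting tried. LSS lay between 21.4 and 35.4 CPM in A549 and between 89.4 and 134 CPM in SUM159, and libraries with indisulam held its lowest values in both. DHCR7, the reductase of the last step, lay between 56.5 and 74.1 CPM in A549 and between 67.8 and 90 CPM in SUM159, with both minima in the combination. CYP51A1 was between 1.69 and 3.36 CPM in A549 and between 2.74 and 4.29 CPM in SUM159, and its calls, lower with the combination in A549 and with palbociclib in SUM159, were lost on total counts and in DESeq2. HSD17B7 ranged from 4.27 to 8.79 CPM and from 4.99 to 8.96 CPM. NSDHL ranged from 60.2 to 68.2 CPM in SUM159, and SC5D from 18.4 to 23.2 CPM in A549. STARD4 lay between 14.6 and 23.3 CPM in A549 and between 37.6 and 61.0 CPM in SUM159, highest with palbociclib. ELOVL6, which elongates palmitate, lay between 33.9 and 41.1 CPM and between 114 and 145 CPM.

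The 4 members ACAT2, FDPS, FADS1 and FADS2 were called lower in all 6 comparisons with untreated cells, and none was called higher in all 6. The share of all genes called alike in all 6 was not computed. FADS2 lost its SUM159 calls on total counts and in DESeq2 with each of the treatments. FADS1 lost its A549 indisulam call without untreated replicate 1 or either indisulam library. The 6 comparisons share untreated libraries within each line and are not independent.

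Adding indisulam to palbociclib lowered 19 of the 31 members in A549 and 22 in SUM159, and adding palbociclib to indisulam lowered 17 and 15. In A549, the combination against palbociclib alone had 1 member higher, NSDHL, and 19 lower, where 23.7% of all genes were higher and 27.8% lower, and the NSDHL call was lost in DESeq2 and without palbociclib replicate 1 or combination replicate 2. The largest falls were in ACACA (-1.15, SE 0.0523), TM7SF2 (-1.08, SE 0.0975) and HSD17B7 (-0.95, SE 0.13). In SUM159, none was higher and 22 were lower, where 23.4% and 24.9% of all genes were. The largest falls were in ACACA (-0.80, SE 0.0734), HSD17B7 (-0.67, SE 0.116) and ACLY (-0.66, SE 0.0341).

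Against indisulam alone, the A549 combination had 1 member higher, TM7SF2 (0.45, SE 0.118; lost in DESeq2 and without indisulam replicate 2), and 17 lower, where 18.6% of all genes were higher and 20.1% lower. INSIG1 (-0.77, SE 0.0677), ACAT2 (-0.76, SE 0.0718) and FADS1 (-0.68, SE 0.0396) fell most. In SUM159, 3 were higher, TM7SF2, MVD and SREBF2, and 15 lower, where 24.9% and 28.0% of all genes were, and on total counts the split was 6 higher and 13 lower. On that scaling 31.6% of the called members were higher, against 62.3% of all called genes. The TM7SF2 call was lost in DESeq2 and without combination replicate 1, and that of MVD in DESeq2 and without indisulam replicate 1 or combination replicate 2. EBP (-0.51, SE 0.0402), INSIG1 (-0.49, SE 0.0607) and FADS1 (-0.44, SE 0.0399) fell most. SREBF2 went up slightly from indisulam to combination, by 0.15 in SUM159 (SE 0.0438, adjusted p = 0.0102), lost without indisulam replicate 1 or combination replicate 1, and by 0.065 in A549 (SE 0.052, adjusted p = 0.353), which did not pass the test.

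Whether the combination equalled the sum of the single agents was tested as the combination change less the palbociclib and indisulam changes on the log2 scale. In A549, 7 members were lower than the sum and none higher, where 2.05% of all genes were lower and 1.49% higher. INSIG1 differed from the sum by -0.54 (SE 0.0966, adjusted p = 0.0101), MSMO1 by -0.52 (SE 0.0966, adjusted p = 0.0113), STARD4 by -0.43 (SE 0.11, adjusted p = 0.048) and HMGCS1 by -0.36 (SE 0.0637, adjusted p = 0.00954). DHCR7, FDFT1 and SCD were the other 3. The STARD4 call was lost on total counts, with a replicate block, in DESeq2 and with its size factors, and that of FDFT1 in DESeq2. The median of the 31 was -0.22 and that of all genes -0.0148. None of these calls held without either of the 2 A549 indisulam libraries, when the count was 0, without either untreated library it was 2 and without palbociclib replicate 2 it was 4. In SUM159, HMGCS1 alone was called, at -0.37 (SE 0.0845, adjusted p = 0.0183), where 2.16% of all genes were lower and 2.22% higher, and this call was lost without untreated, indisulam or combination replicate 1. INSIG1 departed by -0.24 there (SE 0.0847, adjusted p = 0.127). Since the same untreated and single-agent libraries enter the sum for every member, a deviation in 1 library moves all of them.

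**Figure D4:**
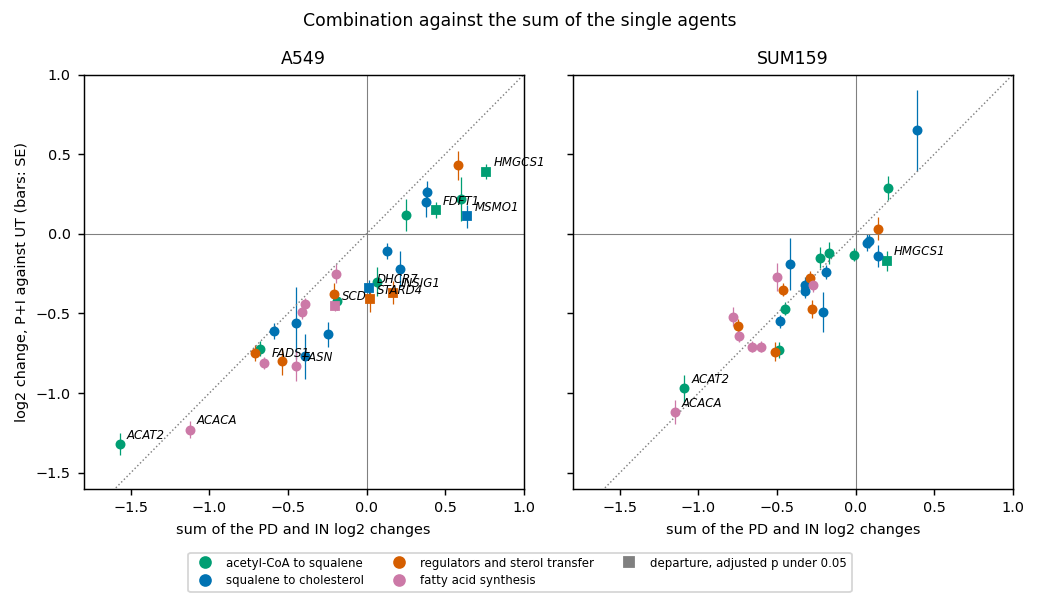
Log2 change with the combination, with SE, against the sum of the palbociclib and indisulam log2 changes for the 31 members of each line; the dotted line marks equality and squares mark departures with an adjusted p-value under 0.05. In A549 most points lie under the line, with INSIG1, MSMO1 and HMGCS1 among the squares, and in SUM159 HMGCS1 is the 1 square.

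Whether the lines differed in response was tested by the interaction terms of a model of the 16 libraries together, written as the SUM159 change less the A549 change. The indisulam response of 10 members was lower in SUM159 and of none higher, where 6.97% of all 17764 genes were lower and 8.04% higher. Of the 10, INSIG1 differed most, by -0.64 (SE 0.0941, adjusted p = 4.96e-05), then MSMO1 by -0.40 (SE 0.104), FDFT1 by -0.37 (SE 0.0622), MVK and INSIG2 by -0.34 each, NSDHL by -0.30, HMGCS1 by -0.29, ACLY by -0.27, IDI1 by -0.25 and SQLE by -0.22. Of these, 7 are enzymes of the sterol pathway, 2 are the INSIG genes and 1 is ACLY. INSIG1, FDFT1 and ACLY kept their calls under every setting tried. The count fell to 4 without untreated A549 replicate 2, untreated SUM159 replicate 1 or SUM159 indisulam replicate 2, to 5 without A549 indisulam replicate 1 and to 6 without untreated SUM159 replicate 2. ACACA (0.22, SE 0.102, adjusted p = 0.162) and SREBF2 (0.10, SE 0.0686, adjusted p = 0.378), which fell most with indisulam in both lines, did not pass the test of a difference.

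**Figure D5:**
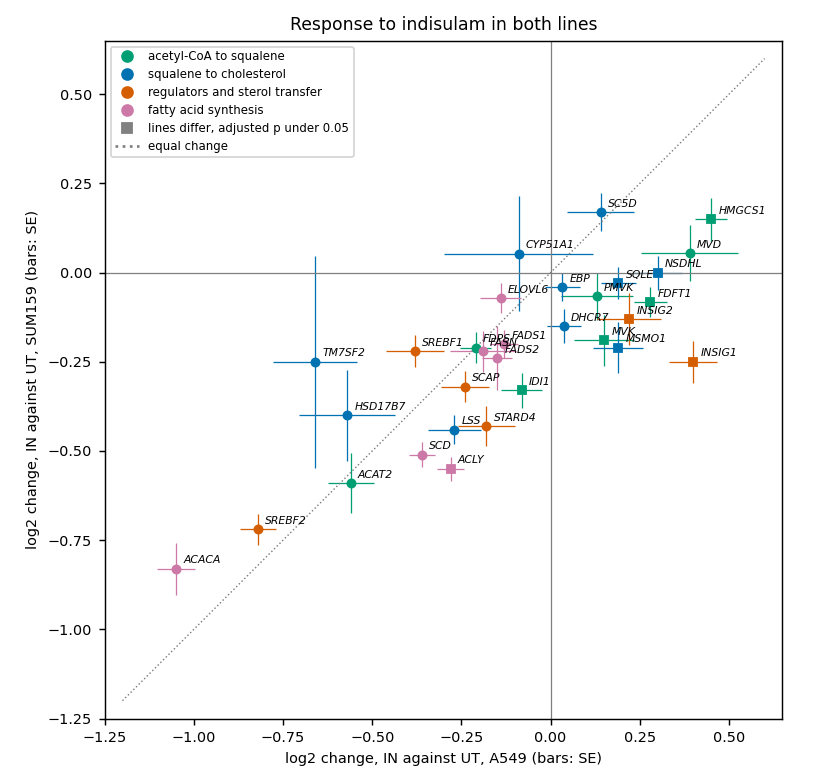
Log2 change with indisulam in A549 (x axis) and SUM159 (y axis), with SE, for the 31 members coloured by role. Squares mark members whose response differed between lines at an adjusted p-value under 0.05. They all lie below the dotted line of equal change, INSIG1 farthest, while ACACA and SREBF2 lie low on both axes.

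The palbociclib response differed in 4 members, with ACAT2 (0.61, SE 0.105), FDPS (0.33, SE 0.061) and EBP (0.27, SE 0.0643) higher and SCD (-0.21, SE 0.0496) lower in SUM159, where 9.65% of all genes were higher and 3.15% lower. The first 3 fell in both lines and fell less in SUM159. The FDPS and EBP calls were lost without either untreated or either palbociclib library of A549. That of EBP was also lost in DESeq2 and with its size factors. With the size factors of DESeq2 the split was 2 higher and 3 lower, and without A549 palbociclib replicate 1 it was 1 higher and 10 lower. The combination response differed in 17 members, 9 higher and 8 lower in SUM159, where 19.1% and 11.8% of all genes were. TM7SF2 (0.93, SE 0.268) and SREBF1 (0.59, SE 0.10) were the most positive, and HMGCS1 (-0.50, SE 0.081) and INSIG2 (-0.33, SE 0.115) the most negative, with INSIG1 at -0.30 (SE 0.0999). The TM7SF2 call was lost in DESeq2, without untreated A549 replicate 1 or A549 combination replicate 2, and without untreated or combination SUM159 replicate 1. The INSIG2 call was lost without untreated SUM159 replicate 2 or SUM159 combination replicate 1. That of INSIG1 was lost with only the groups compared and without untreated or combination SUM159 replicate 1. In this fit the median of all genes was 0.0816 for palbociclib and 0.0995 for the combination, and with the size factors of DESeq2 the combination split was 5 higher and 8 lower. Leaving out 1 A549 untreated or combination library gave between 1 and 3 higher and between 8 and 12 lower, and the count was 10 without SUM159 combination replicate 1 and 11 without untreated A549 replicate 2. ACAT2 and SCD with palbociclib, and HMGCS1, FDFT1, ACLY, SCD and SREBF1 with the combination, kept their calls under every setting tried.

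Related genes outside the set were read from 4 lists of 42 genes in all. The counts given for each list have to be read beside the shares of all genes called. In A549 those shares were 22.0% higher and 21.1% lower for palbociclib, 23.3% and 25.9% for indisulam, 27.4% and 30.4% for both agents. The SUM159 shares, in the same order, were 25.5% and 29.0%, 21.9% and 24.9%, 32.2% and 33.1%. Whether any list departed from these shares was not tested. In the list of SREBP processing and turnover, with 7 genes, MBTPS1 and MBTPS2, the proteases that cleave the SREBPs in the Golgi, fell with indisulam in both lines. MBTPS1 changed by -0.51 in A549 (SE 0.0517) and -0.54 in SUM159 (SE 0.042), and MBTPS2 by -0.66 (SE 0.0517) and -0.56 (SE 0.0469). With indisulam, 1 gene of this list was higher and 3 lower in A549, and none was higher and 4 lower in SUM159. With palbociclib the counts were 2 higher and none lower in A549 and 1 higher and 3 lower in SUM159, and with the combination 2 higher and 3 lower in A549 and none higher and 4 lower in SUM159.

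The list of liver X receptors and sterol handling, with 9 genes, held NR1H3, a receptor for oxysterols, and ABCG1, a sterol exporter under its control. NR1H3 rose with palbociclib by 0.48 in A549 (SE 0.0886) and by 1.11 in SUM159 (SE 0.0908), and ABCG1 by 0.69 (SE 0.0867) and 0.48 (SE 0.149). With palbociclib SMPDL3A was also called higher in A549 and ABCA1 in SUM159, while MYLIP and NPC2 were called lower in SUM159. SOAT1, which esterifies cholesterol, fell in all 6 comparisons with untreated cells, least with palbociclib in A549 (by 0.24) and most with the combination in SUM159 (by 0.70). For palbociclib, indisulam and the combination in turn, this list had 3, 0 and 4 genes higher and 1, 1 and 3 lower in A549, and 3, 3 and 3 higher and 3, 3 and 5 lower in SUM159.

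In the list of fatty acid activation, elongation and supply, with 15 genes, ACSS2, which makes acetyl-CoA from acetate, rose with palbociclib by 0.83 in A549 (SE 0.0822) and 0.56 in SUM159 (SE 0.0531). It fell with indisulam by 0.53 (SE 0.0952) and 0.39 (SE 0.0581). HACD3, a dehydratase of elongation, fell by 1.15 with palbociclib in SUM159 (SE 0.0586) and by 0.28 in A549 (SE 0.0382). FADS3 rose by 1.02 in SUM159 (SE 0.0584) and by 0.34 in A549 (SE 0.0836). In the same order of treatments, 4, 2 and 2 genes of this list were higher and 4, 9 and 7 lower in A549, and 5, 2 and 3 higher and 4, 7 and 7 lower in SUM159.

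The branches that leave the mevalonate pathway, with 11 genes, held wide indisulam changes. GGPS1, the geranylgeranyl diphosphate synthase, fell by 1.54 with indisulam in A549 (SE 0.125) and by 0.49 in SUM159 (SE 0.173). PDSS1, which makes the side chain of ubiquinone, fell by 1.01 (SE 0.0997) and 0.97 (SE 0.0934). RABGGTB, a subunit of the Rab prenyltransferase, rose by 0.76 (SE 0.0722) and 0.64 (SE 0.0501). COQ2, which attaches the ubiquinone side chain, fell with palbociclib by 0.70 in A549 (SE 0.0721) and by 0.52 in SUM159 (SE 0.0537). In the same order of treatments, 2, 2 and 3 genes were higher and 2, 4 and 5 lower in A549, and 4, 2 and 2 higher and 4, 4 and 6 lower in SUM159.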

How the data were processed

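Poly(A) RNA of 16 libraries was sequenced with paired reads of 75 bases. The authors aligned reads to GRCh38 with HISAT2 2.2.1 and deposited raw counts per gene, whole numbers with no normalization, for which the submitters' processing notes name HTSeq. The strand setting and annotation release were not given in the sources used here. Of 58676 identifiers, 58207 were matched to GENCODE 44 for symbols and exon lengths. Rows that name no gene held between 13.2% and 16.4% of a library's counts and were left out.

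Counts were tested with edgeR 4.0.16 in R 4.3.3 (TMM scaling, filterByExpr, quasi-likelihood F-test), with one fit of 8 libraries per line and a fit of all 16 for interactions and untreated levels, after the scripts had been tested on simulated data. P-values were adjusted by Benjamini-Hochberg over all genes tested, with a threshold of 0.05, and a second rule also asked for a 1.5-fold change. CPM are scaled by TMM within the line, except the values comparing untreated lines, which are scaled over all 16 libraries. Samples were grouped by their labels. The members and lists were chosen with earlier results of these data known. Full statistics were given, in each comparison with untreated cells, for the 3 largest increases and decreases among called members and for INSIG1, INSIG2, SREBF1, SREBF2, SCAP, FASN, SCD and SQLE. Alternatives were DESeq2's size factors, total-count scaling, no filter, at least 10 counts in every library, a replicate block, the DESeq2 1.42.0 Wald test, a fit of only the groups compared, and leaving out each library. Leaving out 1 library left a group with 1, which was assumed to vary like the others.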

Additional observations from a re-analysis of the deposited data

Results flagged for a closer look

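The responses of the lines to the same treatment differed by the interaction term of edgeR's quasi-likelihood test, adjusted over 17764 genes, in 31 cases. Each value is the SUM159 log2 change less the A549 log2 change, and line and medium cannot be told apart in any of them. With palbociclib they were ACAT2 (0.61), FDPS (0.33), EBP (0.27) and SCD (-0.21). With indisulam they were INSIG1 (-0.64), MSMO1 (-0.40), FDFT1 (-0.37), MVK (-0.34), INSIG2 (-0.34), NSDHL (-0.30), HMGCS1 (-0.29), ACLY (-0.27), IDI1 (-0.25) and SQLE (-0.22), and all 10 were negative. Those of MVK, IDI1 and INSIG2 were lost on total counts, with no filter and in DESeq2, and that of SQLE with no filter. The palbociclib calls of FDPS and EBP were lost without either untreated or either palbociclib library of A549.

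With the combination the positive values were TM7SF2 (0.93), SREBF1 (0.59), ACAT2 (0.42), FASN (0.37), LSS (0.34), FDPS (0.31), FADS2 (0.28), SREBF2 (0.25) and FADS1 (0.24). The calls of FADS1, FADS2 and SREBF2 were lost in DESeq2, with its size factors and with the filter of 10 counts. Those of ACAT2 and LSS were lost in DESeq2, and that of FDPS without either untreated or either combination library of A549. The negative values were HMGCS1 (-0.50), INSIG2 (-0.33), INSIG1 (-0.30), IDI1 (-0.25), NSDHL (-0.24), FDFT1 (-0.22), ACLY (-0.21) and SCD (-0.19). TM7SF2 was at 0.916 and 1.15 CPM in untreated SUM159 libraries, and its call was lost in DESeq2 and in several fits without 1 library. The SREBF1 and FASN values rest in part on A549 combination libraries that lay apart, at 152 and 116 CPM for SREBF1 and 221 and 161 CPM for FASN. The SREBF1 call held under each alternative, and that of FASN was lost in DESeq2, with its size factors, with the filter of 10 counts and without any of 5 single libraries.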

How the results depend on the processing

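The duplicates are technical by the study's account, so the spread behind every test is that between libraries. The spread between cultures was not measured, and counts near the threshold moved with single libraries. Duplicates differed by unequal amounts. The chi-square per degree of freedom between the 2 libraries of a group ran from 1.65 in SUM159 with indisulam to 10 in untreated SUM159. Called members kept their call under every alternative in 22 of 25 cases for the combination in A549 and 19 of 24 in SUM159, in 13 of 20 and 12 of 21 for indisulam, and in 9 of 15 and 9 of 21 for palbociclib. Replicate numbers did not pair the samples (r between -0.114 and 0.114), and a replicate block gave 15, 20 and 24 called members for palbociclib, indisulam and the combination in A549 and 19, 20 and 24 in SUM159.

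Leaving out 1 library gave between 9 and 13 called members for palbociclib in A549 and between 13 and 18 in SUM159, between 13 and 18 for indisulam in A549, between 0 and 8 departures from additivity in A549 and between 0 and 4 in SUM159. Differences between lines then ranged from 4 to 11 for palbociclib, 4 to 9 for indisulam and 10 to 16 for the combination. Requiring a 1.5-fold change left 3, 3 and 10 members in A549 for palbociclib, indisulam and the combination, 8 and 5 for the combination against each agent and 0 departures. In SUM159 it left 1, 3, 8, 4, 1 and 0 in the same order, and 1, 1 and 2 differences in response and 12 differences between untreated lines. The shares of all genes passing this rule are given above for the comparisons with untreated cells. For the other comparisons they are not given, so these counts cannot be set against all genes. With no filter 5 members departed from additivity in SUM159, and the DESeq2 Wald test called 10 differences in the combination response. Over all genes, total-count scaling made between 50.5% and 64.3% of the called genes within lines higher, the departures aside.

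Changes of sign were in values that did not pass the test, apart from FDFT1 in SUM159 with the combination, which was 0.0186 on total counts, and FDPS between untreated lines, whose left-out values ran from -0.109 to 0.00217. The cause was not tested. On total counts the A549 palbociclib values became 0.00267 for SQLE, 0.0412 for DHCR7 and 0.00508 for ELOVL6. SUM159 palbociclib values became 0.00126 for SC5D, 0.0326 for SREBF1, 0.0757 for SREBF2 (0.00458 with at least 10 counts in every library) and 0.0497 for ACLY. SUM159 indisulam values became 0.0248 for SQLE, 0.0136 for EBP and 0.0533 for NSDHL (0.00658 with no filter, 0.00475 with only the groups compared). SUM159 combination values became 0.031 for MVK, 0.00722 for MSMO1, 0.103 for NSDHL and 0.0934 for SC5D. Leaving out 1 library moved A549 palbociclib values between -0.0639 and 0.238 for PMVK, -0.0353 and 0.366 for MVD, -0.0667 and 0.0887 for LSS, -0.00549 and 0.15 for NSDHL, and -0.0813 and 0.145 for SCAP. It moved A549 CYP51A1 with indisulam between -0.176 and 0.0196 and A549 MVD with the combination between -0.0122 and 0.405. In SUM159 it moved HMGCS1 between -0.0562 and 0.163 and MVK between -0.0133 and 0.0538 with palbociclib, and MVD between -0.0121 and 0.118, CYP51A1 between -0.0701 and 0.182 and NSDHL between -0.0156 and 0.0182 with indisulam. INSIG2 with the combination ran from -0.00867 to 0.0681 there.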
